A study of Saccharomyces cerevisiae with 8 samples.

Results

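Convergent genes point their 3′ ends at each other, and where neither transcript stops before the other has ended, the same stretch of DNA is transcribed into both RNAs. In these TIF-seq data of SK1 budding yeast, 612 pairs of opposing 3′ ends overlapped in this way. They were chosen by measured values, namely the molecules at each end summed over all libraries and the distance between the ends. A pair was made of a 100-nt bin of the plus strand and a 100-nt bin of the minus strand, each holding the 3′ ends of at least 100 molecules over all 8 libraries. The position with most 3′ ends in a bin was its peak, and a pair overlapped where the plus peak lay 1 to 300 nt beyond the minus peak. Each plus bin was paired with the minus bin that held most molecules. The pairs took up 612 plus bins and 470 minus bins, together 1082 of the 6056 bins that reached 100 molecules. They fell into 459 loci, of which 321 held 1 pair, 123 held 2 pairs, and 15 held 3 pairs. Pairs of one locus share a minus bin or have neighbouring plus peaks within 300 nt of each other. Another 235 pairs at which the peaks left a gap of 0 to 300 nt served for comparison, which gave 847 tail-to-tail pairs in all. Pairs are named by their overlap, from the minus peak to the plus peak, in positions of the authors' SK1 assembly. They are not assigned to genes, because the only annotation at hand was of another assembly.

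In budding yeast, the 3′ end of an mRNA is made when the nascent RNA is cut and a poly(A) tail is added, while RNA polymerase II runs on for some distance before it leaves the DNA. Neighbouring genes lie close together in this genome, so that convergent genes often share the short region in which both end. Polymerases that move towards each other cannot pass one another, and the paired 3′ ends of the RNAs are complementary. Budding yeast has no RNA interference pathway that would process double-stranded RNA.

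All cells were diploid and carried IME1, the master activator of entry into meiosis, under a copper-inducible promoter. They also carried NDT80, the activator of the later meiotic programme, under a galactose promoter driven by a Gal4 fused to the oestrogen receptor. IME1 was switched on with 50 µM CuSO4 after 2 h in sporulation medium, so that pm cells were taken before copper and all later stages after it. For T2, NDT80 was then switched on with 1 µM β-estradiol after 6 h, and for T3 the cells were instead moved to rich medium (YPD) at that time. Time points were pooled into pre-meiotic cells (pm), early meiosis (T1), mid-late meiosis (T2), and return to growth (T3), with 2 independent replicates each. Each library therefore averages over several hours or minutes of a changing population, and a pair seen in 1 library need not have been transcribed on both strands in the same cell. The stage labels could not be checked against marker genes.

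TIF-seq joins the capped 5′ end and the polyadenylated 3′ end of one RNA, so that each deposited line is 1 molecule with both ends placed on the genome. The libraries held 552357 to 1820826 yeast molecules each and 8552677 in all. The bins of overlapping pairs took 18.4% to 19.8% of the molecules in both pm libraries, both T1 libraries, and T2 replicate 1. They took 14.1% to 15.6% in T2 replicate 2 and both T3 libraries, which were also among the shallower ones. However, pm replicate 1, with 18.4%, had 606325 molecules, fewer than T2 replicate 2 (775322) and T3 replicate 1 (856784). The part of depth in these shares was not tested. The spike-in RNAs, which are made from 1 strand, gave 4 antisense molecules of 14464, and no pair had a weaker end below that share of its stronger end.

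The opposing 3′ ends lay at a preferred distance. The median overlap of the 612 pairs was 90 nt, with quartiles of 69 and 112 nt and a range of 1 to 288 nt. The overlap was 60 to 119 nt in 373 pairs, over 150 nt in 52 pairs, and over 200 nt in 20 pairs. The rule chose the pairs for an overlap, so these values describe the members and test nothing. Without the limits of the rule, 465 combinations of bins with 100 or more molecules had a distance of 60 to 119 nt, and 113 had a gap of the same size. The fullest step of 20 nt was 80 to 99 nt with 181 combinations, against a median of 8 per step within 1000 nt.

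Bins too weak to be members showed the same preferred distance. Among bins with 20 to 99 molecules, 330 combinations overlapped by 60 to 119 nt and 98 were separated by a gap of that size. Their fullest step was again 80 to 99 nt, with 131 combinations against a median of 23. Weak bins beside member bins were not left out, so this is not a separate set of loci. At the edges of the rule, 8 pairs overlapped by 1 nt and 7 gapped pairs had a distance of 0 nt, and the closest combination beyond the upper limit lay at 301 nt. Members with 100 to 109 molecules in the weaker end, of which there were 35, had a median overlap of 99 nt. The 50 pairs with 90 to 99 molecules in the weaker end had one of 87 nt.

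**Figure D1:**
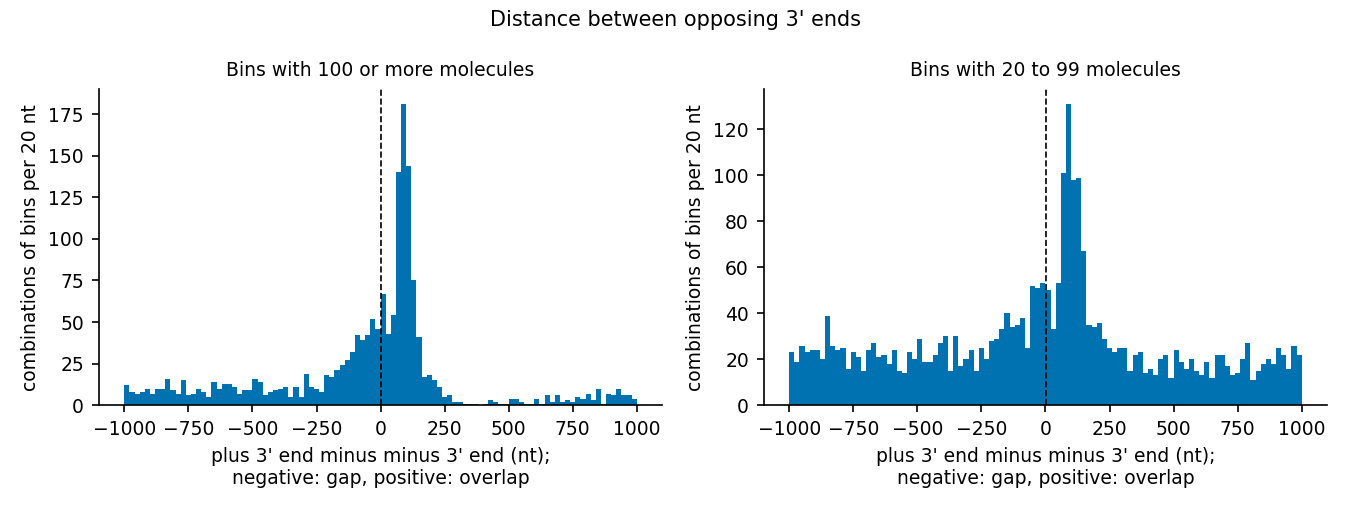
The number of combinations of a plus and a minus 3′ end bin is plotted per 20 nt of distance between their peaks (x axis, nt, with gaps negative and overlaps positive), on the left for bins with 100 or more molecules and on the right for bins with 20 to 99. Both panels rise to their highest bar at 80 to 99 nt of overlap, with 181 and 131 combinations.

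In most pairs the overlap was carried by nearly all molecules. Of all plus-strand 3′ ends near the plus peak, a median of 99.2% lay past the minus peak, and of the minus-strand ends a median of 99.4% lay past the plus peak. At the gapped pairs the medians were 3.76% and 0.901%. The rule set the order of the peaks, so these shares describe the members. The lowest shares among the overlapping pairs were 2.19% on the plus strand and 0.261% on the minus strand. Within a bin, a median of 31.8% of the 3′ ends sat at the peak position itself, against 34.7% in the tested bins outside overlapping pairs.

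In most pairs the molecules of both strands started outside the overlap. Their median length was 869 nt on the plus strand and 852.5 nt on the minus strand, and at the gapped pairs it was 869 and 895 nt. In 538 pairs at least 99% of the molecules on each strand started outside the partner's end. At 2 pairs most minus molecules started inside the overlap, and these are named because they were the exceptions. At chr05:491082-491257 the minus molecules had a median length of 130 nt, and at chr15:388980-389237 one of 272 nt.

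All 16 chromosomes held overlapping pairs. The share of plus bins with an overlapping partner ran from 15.1% on chromosome 13, with 37 pairs, to 27.3% on chromosome 2, with 51 pairs. Chromosome 4 had the most pairs, 76.

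The ends of a pair were rarely equal in number of molecules. The paper reports that shorter fragments were over-represented in its TIF-seq, so strands with transcripts of unlike length need not be counted alike. The part of transcript length in these values was not tested. Over all libraries, the plus bins held a median of 337.5 molecules and the minus bins one of 439. The weaker end reached a median of 37.3% of the stronger end, with quartiles of 14.7% and 64.3%. It reached at least 50% in 231 pairs and stayed under 10% in 112. The plus end was the stronger one in 282 pairs and the minus end in 329. Gapped pairs were alike in this, with a median of 34.6%.

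Both ends of a pair were usually seen in the same library. In 608 of the 612 pairs both ends reached 10 molecules in at least 1 library, and in 59 pairs they did so in all 8. Both replicates had 10 or more molecules at both ends in 278 pairs in pm, 471 in T1, 343 in T2, and 88 in T3. The T3 libraries also had the smallest effective sizes, and the part of depth in these counts was not tested. Among pairs with at least 20 molecules in a library, the weaker end had a median of 17.0% to 26.7% of the stronger end in the pm, T1, and T2 libraries. In the T3 libraries it had 8.60% and 5.0%. The same strand was the stronger in all 8 libraries in 195 pairs, 31.9% of them, and in 72 gapped pairs, 30.6% of them.

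The pairs with most molecules showed both steady and stage-bound partners. At chr09:413888-413998, with an overlap of 110 nt, the plus end had 1104 and 1694 molecules in pm, 3603 and 1227 in T1, 936 and 731 in T2, against 312 and 221 in T3. Its minus end had 1061 and 1149 molecules in pm, 1301 and 697 in T1, 745 and 460 in T2, against 31 and 20 in T3. Both strands were abundant in every stage up to T2, and in T3 the minus end was by far the lower one. The ratio of plus to minus molecules rose from T1 to T3 by 2.23 ± 0.67 on the log2 scale (± SE, limma, adjusted p = 0.017). This call was lost without any 1 of the T1 or T3 libraries, at 1.90 to 2.56, and with ratios weighted by counting error, at 2.10.

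At chr12:696841-696862, with an overlap of 21 nt, the minus end had 2252 and 4417 molecules in pm, 755 and 454 in T1, 5358 and 1935 in T2, against 206 and 62 in T3. The plus end had 1 and 10 molecules in pm, 96 and 66 in T1, 4517 and 1066 in T2, against none in T3. The plus end was thus most abundant in T2, a stage in which its partner was abundant too. Both ends were called higher in T2 than in T1, the plus end by 5.94 ± 0.62 (adjusted p = 0.0002) and the minus end by 3.58 ± 0.38 on the log2 scale (adjusted p = 0.00023).

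At the third pair, chr02:725231-725349, with an overlap of 118 nt, the minus end was abundant throughout the first 3 stages. It had 519 and 1417 molecules in pm, 2132 and 902 in T1, 1356 and 601 in T2, against 31 and 19 in T3. The plus end had 1 and 17 molecules in pm, 2 and 2 in T1, 4323 and 363 in T2, against 1 and 0 in T3. A short plus transcript, with a median length of 282 nt, thus appeared in T2 against a partner that was not called different between T1 and T2 (0.46 ± 0.35, adjusted p = 0.38).

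**Figure D2:**
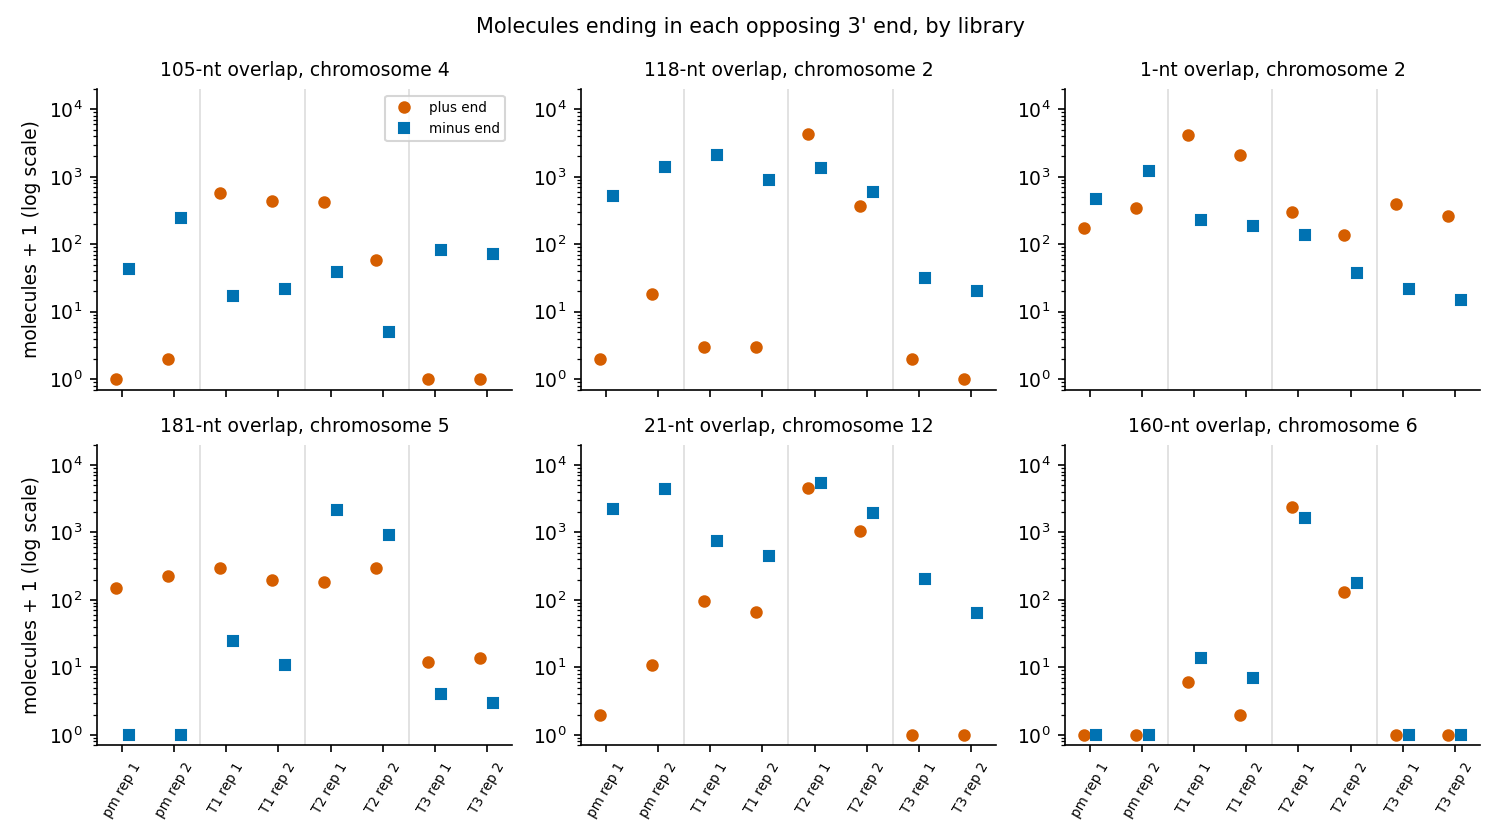
Molecules ending in the plus end (circles) and in the minus end (squares) of 6 pairs are plotted for each of the 8 libraries, as molecules + 1 on a log scale and not corrected for depth. The stronger strand changes between pm and T1 at the 105-nt and the 1-nt overlap, and both ends rise together in T2 at the 160-nt overlap.

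The first question of the design was what changed when pre-meiotic cells entered meiosis. The level of each 3′ end was compared between stages with limma voom on all 6056 bins, and calls required a change of at least 2-fold with an adjusted p under 0.05. From pm to T1, 105 of the 1082 member ends were called higher and 108 lower. Among all tested bins, 11.2% were called higher and 12.6% lower, against 9.70% and 9.98% of the member ends. The median log2 change was 0.09 for the members and 0.03 for all bins. Scaling by library totals moved the median of all bins to 0.54 and the member calls to 192 higher and 84 lower. The calls rested in part on single libraries, and fell to 42 without pm replicate 2, to 51 without T1 replicate 1, and to 76 without T1 replicate 2.

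In most pairs neither end was called. From pm to T1, no end was called in 407 of the 612 pairs, against 65.3% of all 847 tail-to-tail pairs, and 1 end in 167 pairs (27.3%), against 28.1%. Both ends were called higher in 6 pairs, both lower in 17, and in opposite directions in 15. Among all tail-to-tail pairs, these last shares were 0.826%, 3.19%, and 2.6%. Across the 612 pairs, the log2 changes of the plus and minus ends had a Pearson correlation of 0.05, and across the 235 gapped pairs one of 0.04. These are descriptions over pairs that share libraries, and in part ends.

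**Figure D3:**
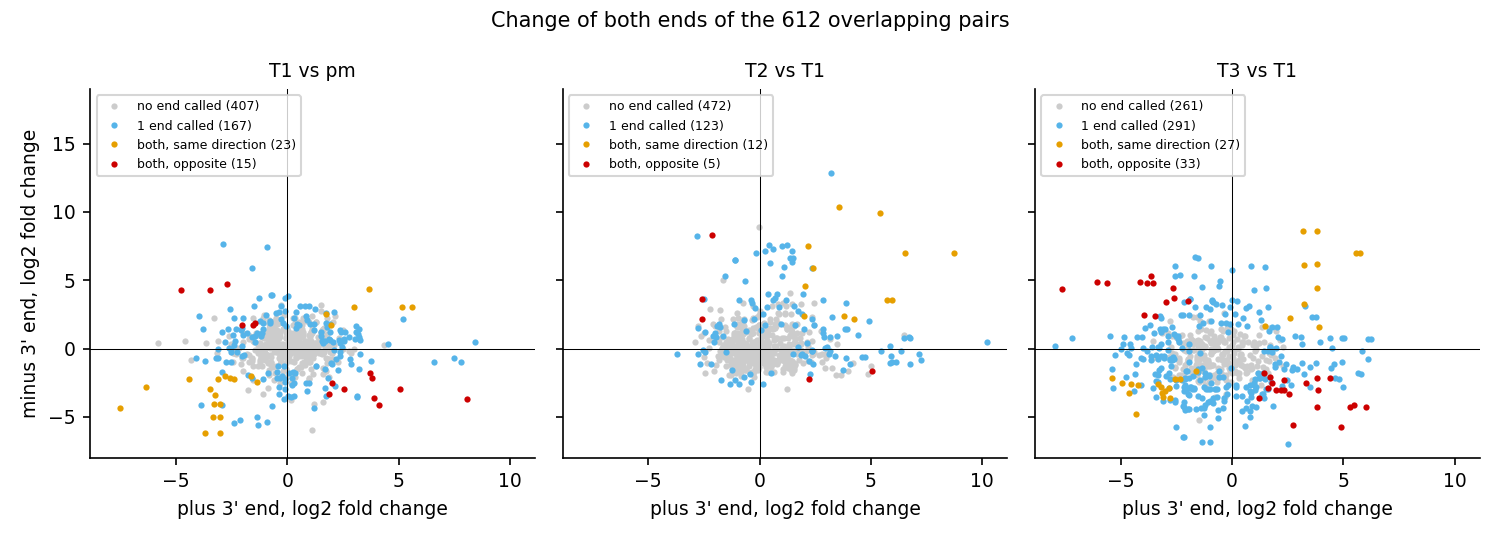
The log2 fold change of the plus 3′ end (x axis) is plotted against that of the minus 3′ end (y axis) for the 612 overlapping pairs in the 3 comparisons, with pairs coloured by which ends were called. Most called pairs lie near an axis, with 167, 123, and 291 pairs in which 1 end was called.

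The balance of the strands was compared within each library, as log2 of plus over minus molecules with 0.5 added to both. This measure is free of the scaling between libraries. From pm to T1, the ratio was called different in 95 of 612 pairs, 53 with a shift to the plus strand and 42 to the minus strand. Among all 847 tail-to-tail pairs, 16.4% were called. In 80 pairs one strand was the stronger in both pm libraries and the other in both T1 libraries, a switch found in 12.2% of all tail-to-tail pairs. The median absolute change was 1.41 on the log2 scale, and 1.48 over all tail-to-tail pairs. The ratio calls fell to 33 without pm replicate 2, 32 without T1 replicate 1, and 23 without T1 replicate 2, and rose to 143 without either T2 library. Where an end had fewer than 4 molecules in a stage, the fitted size depends on the 0.5 that was added and only its adjusted p is given.

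Of these switches, chr04:1318944-1319049 was among the largest. Its plus end had 0 and 1 molecules in pm, 567 and 433 in T1, 415 and 57 in T2, against 0 and 0 in T3. The minus end had 42 and 243 molecules in pm, 16 and 21 in T1, 38 and 4 in T2, against 82 and 70 in T3. The plus strand was thus the stronger in every T1 and T2 library and the minus strand in every pm and T3 library. The ratio was called higher in T1 than in pm (adjusted p = 1.9e-05) and lower in T3 than in T1 (adjusted p = 2.2e-06). The T3 libraries had no plus molecule among 82 and 70, which allows a plus share of up to 3.66% and 4.29%. Both ends passed the test on their own in both comparisons, and their levels moved in opposite directions.

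At chr04:491878-491968 the plus end had 9 and 14 molecules in pm and 6853 and 4311 in T1. The minus end had 32 and 68 molecules in pm and 54 and 50 in T1. The ratio rose by 8.70 ± 0.91 (adjusted p = 3.8e-05), or by 6.27 when each distinct pair of ends was counted once, and the minus end itself was not called (-0.98 ± 0.67, adjusted p = 0.31). Of the ends of this pair only the plus end was called, and it stayed the stronger in T2, with 1698 and 1527 molecules, and in T3, with 122 and 72.

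The largest shifts towards the minus strand were at chr04:1188190-1188254 and chr13:751381-751382. At the first, the plus end had 7 and 97 molecules in pm and 7 and 11 in T1, and the minus end rose from 0 and 2 to 491 and 529 (ratio, adjusted p = 3.8e-05). That plus end reached 100 molecules only through pm, so the p-value of this ratio gives no independent support. At the second, with an overlap of 1 nt, the plus end fell from 91 and 935 molecules to 26 and 23, and the minus end rose from 0 and 2 to 85 and 22 (ratio, adjusted p = 0.00016). Both ends of the second pair were called, in opposite directions. Its plus bin was a minor end, with 14.6% of the nearby plus-strand 3′ ends, and the median plus end within 150 nt lay 79 to 88 nt farther on. The pm replicates of both plus ends lay far apart, beyond their difference in depth.

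The pair chr02:225581-225582, one of the shortest overlaps with 1000 or more molecules in each end, also changed its stronger strand. On the plus strand it had 175 and 340 molecules in pm, 4180 and 2114 in T1, 302 and 137 in T2, against 398 and 262 in T3. On the minus strand it had 465 and 1214 molecules in pm, 230 and 185 in T1, 134 and 36 in T2, against 21 and 14 in T3. The ratio rose by 5.47 ± 0.68 from pm to T1 (adjusted p = 0.00016), as the plus end rose by 2.53 ± 0.35 and the minus end fell by 2.99 ± 0.46.

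In a few pairs both ends were called in the same direction. At chr06:71850-71964 the plus end went from 4 and 18 molecules in pm to 522 and 112 in T1, and the minus end from 0 and 0 to 28 and 17. At chr11:338673-338691 the plus end went from 19 and 89 molecules to 0 and 0, and the minus end from 14 and 55 to 5 and 1. The smaller of the adjusted p-values were 0.0069 and 0.0015, those of the other ends 0.021 and 0.0059. The minus end of the former pair reached 100 molecules only through T1 and T2 together, so the p-value of its rise gives no independent support. The minus end of the latter pair was called higher again in T3, with 61 and 31 molecules, while its plus end had 1 and 1. That plus end passed the test against T1 as well (adjusted p = 0.035 by limma), on 1 molecule per library against none, and was the only called member end in the 3 comparisons with 4 or fewer molecules in every library compared. This minus end was a minor one, since only 0.528% of the nearby minus-strand 3′ ends lay past the plus peak. The plus end reached 100 molecules only through pm, so the p-value of its fall gives no independent support. The minus end reached 100 only through pm and T3 together, so the calls of its fall in T1 and its rise in T3 give none either.

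The second question was how mid-late meiosis differed from early meiosis. From T1 to T2, 112 member ends were called higher and 27 lower, or 10.4% and 2.50%. Among all tested bins, 12.7% were called higher and 2.79% lower. The direction of this split depended on the scaling, with 84 higher and 209 lower by library totals and 94 higher and 108 lower by upper quartiles. These scalings moved the median of all bins from 0.12 to -0.76 and -0.37. The 139 calls fell to 36 without T1 replicate 1 and to 52 without T1 replicate 2, and rose to 280 without T2 replicate 2. The median log2 change was 0.05 for the member ends.

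Within pairs, 1 end was called in 123 (20.1%), against 21.0% of all tail-to-tail pairs, both were called higher in 12, and the ends were called in opposite directions in 5. Among all tail-to-tail pairs, 1.89% had both ends called higher and 0.945% had opposite calls. The ratio was called different in 87 pairs, 41 towards the plus strand and 46 towards the minus strand, against 13.6% of all tail-to-tail pairs. The stronger strand differed between T1 and T2 in every library in 78 pairs, against 12.4% of all tail-to-tail pairs. The number of ratio calls depended on the weights, with 210 when each ratio was weighted by its counting error. It was 21 without T1 replicate 1, 39 without T1 replicate 2, and 57 without T2 replicate 1. The replicates of T2 were the least alike, with a correlation of the log ratio of 0.79 over 531 pairs, against 0.90 in pm, 0.92 in T1, and 0.97 in T3.

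The largest shifts to the plus strand were at chr02:725231-725349, described above (9.59 ± 1.00, adjusted p = 0.00012), and at chr08:388339-388467. The call at the former was lost when ratios were weighted by counting error. At chr08:388339-388467 the plus end had 6 and 0 molecules in T1, 155 and 139 in T2, against 13 and 12 in T3. Its minus end had 377 and 214 molecules in T1, 91 and 64 in T2, against 0 and 2 in T3. The ratio rose by 8.24 ± 1.27 from T1 to T2 (adjusted p = 0.0013) and was again called higher in T3 than in T1 (adjusted p = 3.5e-05). The plus strand was the stronger in every T2 and T3 library and the minus strand in both T1 libraries. The member minus end was the minor one of its surroundings, since 31.5% of the nearby minus-strand 3′ ends lay past the plus peak. The plus ends of both pairs reached 100 molecules only through T2, so the p-values for T2 against T1 give no independent support.

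The largest shifts to the minus strand were at chr05:542987-543015 and chr16:507389-507592. At chr05:542987-543015 the plus end had 482 and 267 molecules in T1 and 69 and 20 in T2, and the minus end had 7 and 6 in T1 and 1533 and 668 in T2 (-10.43 ± 1.12, adjusted p = 0.00012). Both ends were nearly absent in pm and T3, where no library had more than 4 molecules in either end. Of the nearby plus-strand 3′ ends, 10.2% lay past the minus peak of this pair. At chr16:507389-507592, with an overlap of 203 nt, the minus end had no molecules in either T1 library and 427 and 9 in T2. Its plus end had 84 and 29 molecules in T1 and 2 and 5 in T2 (ratio, adjusted p = 0.0013). The T2 replicates of this minus end differed far more than their depths, and the shift was in the same direction in both. The minus ends of both pairs reached 100 molecules only through T2, and the plus ends only through T1. These p-values therefore give no independent support for the shifts.

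One of the longest overlaps gained its partner in meiosis. At chr05:333026-333207, with an overlap of 181 nt, the minus end had 0 and 0 molecules in pm, 24 and 10 in T1, 2156 and 901 in T2, against 3 and 2 in T3. Its plus end had 151 and 227 molecules in pm, 297 and 196 in T1, 184 and 299 in T2, against 11 and 13 in T3. The plus end was thus nearly alone in pm and outnumbered in T2. The ratio fell by 6.48 ± 0.93 from T1 to T2 (adjusted p = 0.00076), with the minus end up by 7.52 ± 0.54 and the plus end not called (1.01 ± 0.53, adjusted p = 0.22). This minus end reached 100 molecules only through T2, so the p-value of the ratio gives no independent support. The other long overlap, chr15:619732-619924 with 192 nt, had both ends in every library, with 42 to 983 plus and 25 to 1039 minus molecules. Its ratio was not called in any comparison.

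At chr06:125334-125494 both ends were specific to T2 in these libraries. Plus molecules numbered 5 and 1 in T1 and 2348 and 129 in T2, and minus molecules 13 and 6 in T1 and 1622 and 175 in T2. Both ends had 0 molecules in all pm and T3 libraries. Both were called higher in T2, by 8.73 ± 1.67 (adjusted p = 0.0064) and 7.00 ± 1.07 (adjusted p = 0.0018). Both ends reached the 100 molecules of the rule only through T2, so these p-values give no independent support for that rise. By contrast, at chr04:350713-350748 the ends were called in opposite directions. There the plus end had 60 and 38 molecules in T1 and 5 and 2 in T2, and the minus end 64 and 34 in T1 and 928 and 67 in T2 (ratio -6.11 ± 1.09, adjusted p = 0.0027). This plus end reached 100 molecules only through T1, so the call of its fall and the p-value of the ratio give no independent support.

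The third question was how cells that returned to growth differed from those in early meiosis. From T1 to T3, 138 member ends were called higher and 223 lower, or 12.8% and 20.6%. Among all tested bins, 18.9% were called higher and 19.7% lower. The median log2 change was -0.86 for the member ends and -0.43 for all bins. With library totals the calls were 76 higher and 568 lower at a median of -1.77 for all bins, and with upper quartiles 119 and 306 at -0.66. The T3 libraries were the shallowest by effective size, and without either of them the split turned, with 83 higher and 35 lower without T3 replicate 1 and 97 higher and 34 lower without T3 replicate 2.

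Within pairs, 1 end was called in 291 (47.5%), against 46.6% of all tail-to-tail pairs. Both were called higher in 11, both lower in 16, and opposite in 33, against 3.19%, 2.72%, and 5.9% of all tail-to-tail pairs. The ratio was called in 237 pairs, 123 towards the plus strand and 114 towards the minus strand, against 40.6% of all tail-to-tail pairs. The stronger strand switched in every library in 110 pairs, against 19.2% of all tail-to-tail pairs. The number of ratio calls fell to 75 when each ratio was weighted by its counting error, to 156 and 135 without T1 replicate 1 or 2, and to 152 without T3 replicate 2. The changes of plus and minus ends had a correlation of -0.02 over the 612 pairs.

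At chr02:273034-273123 the plus end had 177 and 161 molecules in T1 and 0 and 0 in T3, and the minus end had 138 and 82 in T1 and 1064 and 351 in T3. In T3 no plus molecule was found among 1064 and 351, which allows a share of up to 0.282% and 0.855%. The ratio was called lower in T3 (adjusted p = 2.2e-06), although not when ratios were weighted by counting error. Of the nearby plus-strand 3′ ends, 32% lay past the minus peak. The reverse was seen at chr12:422596-422597, with an overlap of 1 nt. Its plus end went from 17 and 5 molecules in T1 to 173 and 102 in T3, and its minus end from 44 and 56 to 0 and 0 (ratio, adjusted p = 5.3e-05). In T3 its minus share was at most 1.73% and 2.94%, and 27.7% of the nearby minus-strand ends lay past the plus peak. The plus bin was a minor end as well, with 2.09% of the nearby plus-strand ends, and the median plus end within 150 nt lay 78 to 84 nt farther on. Within that distance there were 1253 and 781 plus ends in T1 and 5459 and 2725 in T3. The member plus end reached 100 molecules only through T3 and the minus end only through T1, so the p-value of this ratio gives no independent support.

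In other pairs both ends were called in the same direction. At chr12:350273-350289 the plus end had 28 and 8 molecules in T1 and 155 and 227 in T3, and the minus end had 3 and 0 in T1 and 35 and 41 in T3. In pm it had 65 and 185 plus and 2 and 40 minus molecules, and only 0.261% of the nearby minus-strand 3′ ends lay past its plus peak. At chr04:255710-255854 the plus end had 193 and 105 molecules in T1 and 1 and 1 in T3, and the minus end had 133 and 107 in T1 and 1 and 0 in T3. The adjusted p-values of these ends lay between 0.0003 and 0.0025. The minus end of chr12:350273-350289 reached 100 molecules only through T3, so its p-value gives no independent support. At chr04:1193997-1194005, the other pair of peaks with a short overlap and many molecules, no ratio was called, but both ends were called lower in T1 than in pm (-3.12 ± 1.00, adjusted p = 0.046, and -2.23 ± 0.45, adjusted p = 0.0075). Its plus end had 139 and 1153 molecules in pm and 128 and 86 in T1, and its minus end 168 and 325 in pm and 131 and 86 in T1. The plus bin held 45.4% of the nearby plus-strand ends. Within 150 nt of the peak there were 312 and 1987 plus ends in pm and 488 and 315 in T1, with their median 21 and 16 nt beyond the peak in pm and 111 nt in both T1 libraries. The measured overlap was 29 and 24 nt in pm, 119 and 119.5 nt in T1, and 25 and 111.5 nt in T2. Its change from pm to T1 was not called (92.75 ± 28.27 nt, limma, adjusted p = 0.12).

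The length of the overlap was then measured in each library, as the distance between the median plus and minus 3′ end within 150 nt of each peak. It could be compared in 124 overlapping pairs that had at least 10 molecules per end in every library, and in 171 tail-to-tail pairs in all. Values below 0 mean that the median ends left a gap, which can occur where a stronger 3′ end lies beside the bin of the pair. The median overlap of the 124 pairs was 86 and 80 nt in pm, 93 and 92.5 nt in T1, 83.5 and 89 nt in T2, against 93 and 92 nt in T3.

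Overlaps were longer in T1 than in pm in most of these pairs. The median difference was 6.63 nt over the 124 pairs and 4 nt over all 171 pairs, with 99 pairs longer and 22 shorter. By limma, at an adjusted p under 0.05, 15 pairs in 10 loci were called longer and 1 shorter, against 10.5% of the tail-to-tail pairs called in either direction. The called rises ran from 5 to 93.25 nt with a median of 33.5 nt, and both T1 libraries lay above both pm libraries in all 15. The rises of 5 nt, at chr16:296278-296300 and chr16:296278-296320, were of a gap that narrowed. Both pairs had -55 and -57 nt in pm and -51 and -51 nt in T1, and values below 0 in every library. The pair called shorter, chr16:325574-325653, also had a gap in every library. Some pairs of one locus carry the same values. Without pm replicate 2, 7 pairs were called longer. The one-sided split did not hold without T1 replicate 1, where 10 pairs were called longer and 7 shorter. With the mean position in place of the median, 43 were called longer. With only the 3′ ends inside the bins, 59 pairs could be tested, of which 2 were called longer.

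The later comparisons gave few calls. From T1 to T2, 2 pairs were called longer and 4 shorter, against 4.68% of the tail-to-tail pairs, and 44 of the 124 were longer and 70 shorter. Without either pm library or in a fit of T1 and T2 alone, limma called 0 pairs, with 20, 20, and 14 at an unadjusted p under 0.05. From T1 to T3, 5 pairs were called longer and 6 shorter, against 8.19%, with 62 longer and 58 shorter. Without T3 replicate 2 the calls were 12 longer and 8 shorter.

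**Figure D4:**
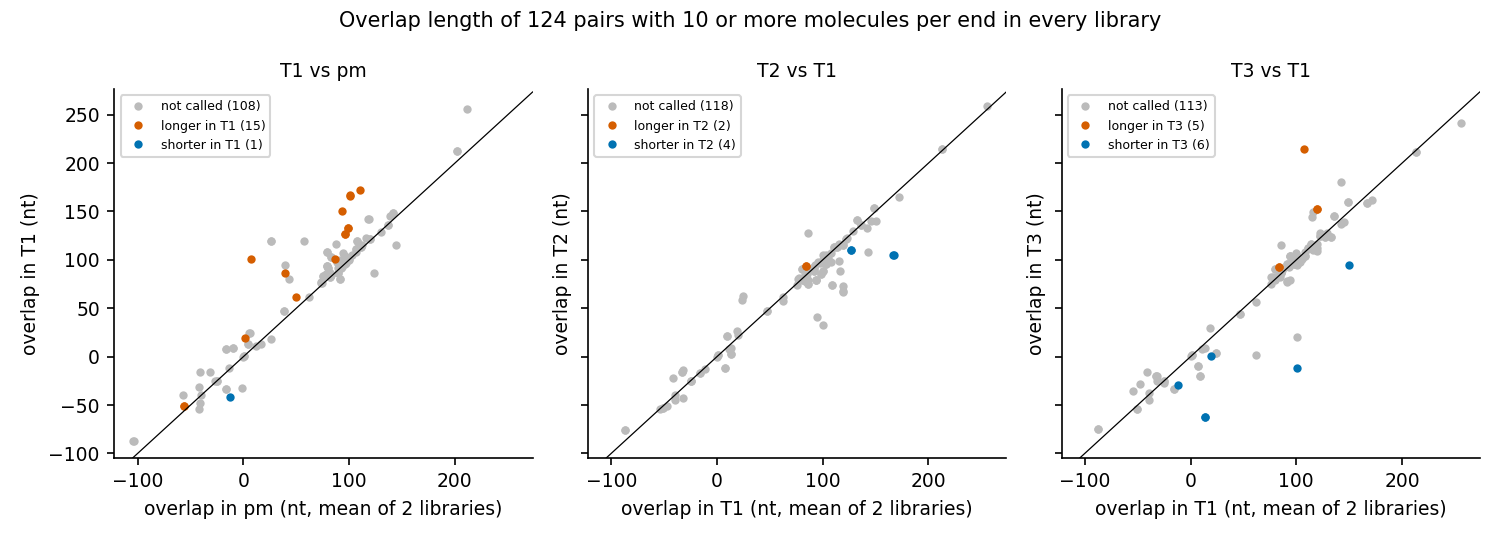
The overlap length of 124 pairs, as the mean of the 2 libraries of a stage, is plotted for the later stage (y axis, nt) against the earlier or reference stage (x axis, nt), with called pairs in colour and a line of equal length. In the comparison of T1 with pm, 15 called pairs lie above the line and 1 below.

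The pair with the largest called change between T1 and T2 was chr02:37274-37447. Its overlap was 101 and 101 nt in pm, 166 and 168 nt in T1, 101 and 109 nt in T2, against 152 and 166 nt in T3. The T1 libraries lay above all pm and T2 libraries. The length rose by 66.0 ± 5.3 nt from pm to T1 (adjusted p = 0.0034) and fell by 62.0 ± 5.3 nt from T1 to T2 (adjusted p = 0.0075). The minus end stayed in place, with its median at the peak or up to 2 nt short of it in every pm, T1, and T2 library.

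The change was one of proportion between separate plus 3′ ends. Plus 3′ ends no more than 30 nt upstream of the peak were 74 of 238 and 135 of 351 in pm, 420 of 792 and 284 of 502 in T1, and 376 of 893 and 419 of 915 in T2. Late ends were thus the majority in both T1 libraries and the minority in all pm and T2 libraries, and the median plus end lay at -70 nt from the peak in both pm libraries and at -5 nt in both T1 libraries. The ratio of the strands was not called at this pair in any comparison. The T3 libraries had 27 and 13 plus ends here.

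At chr05:79968-80066 the overlap was 3.5 and 11 nt in pm, 98 and 103 nt in T1, 57.5 and 8 nt in T2, against -1 and -22 nt in T3. It rose by 93.25 ± 17.79 nt from pm to T1 (adjusted p = 0.043) and fell by 112.0 ± 17.8 nt from T1 to T3 (adjusted p = 0.026). Late plus ends were 55 of 154 and 35 of 132 in pm, 387 of 620 and 239 of 404 in T1, 74 of 148 and 64 of 185 in T2, and 28 of 109 and 19 of 74 in T3. T1, with the longest overlap, was also the stage with most molecules at both ends before any scaling, with 383 and 236 plus and 559 and 325 minus molecules. In pm the plus bin had 55 and 36 molecules and the minus bin 30 and 41.

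**Figure D5:**
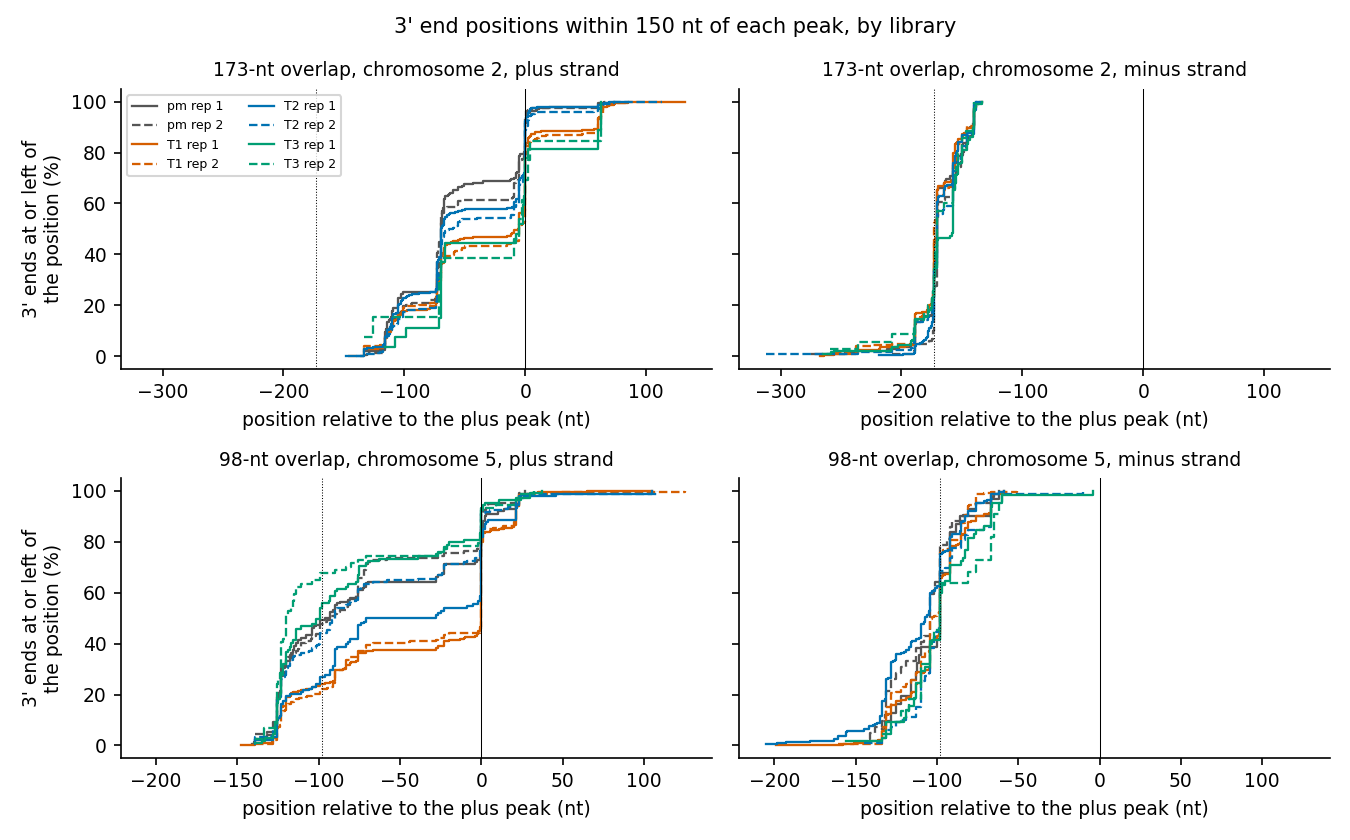
The cumulative share of 3′ ends within 150 nt of the peak (y axis, percent) is plotted by position relative to the plus peak (x axis, nt) for both strands of 2 pairs and all 8 libraries, with the plus peak as a solid and the minus peak as a dotted vertical line. On the plus strand the T1 curves run below the pm curves over the plateau before the peak, with 420 of 792 and 284 of 502 late ends at the 173-nt overlap, while the minus-strand curves of these stages lie close together.

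Other called changes were named after their values had been seen. At chr12:152208-152359 the overlap was 95 and 92 nt in pm, 149.5 and 151 nt in T1, 150 and 130 nt in T2, against 92.5 and 96 nt in T3, so that the longer form was found in both meiotic stages. At chr06:117951-118042 it was 102 and 113 nt in T1 and 215 and 214.5 nt in T3, the only rise of over 100 nt in T3 (107.25 ± 4.19 nt, adjusted p = 0.00018). At chr04:316803-316903 it was 15 and 12 nt in T1 and -60 and -64 nt in T3, so that the overlap of the median ends gave way to a gap (-75.5 ± 2.8 nt, adjusted p = 0.00018).

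The longer overlaps of T1 came with 3′ ends that lay farther downstream on each strand. Of the 456 member bins with at least 10 nearby molecules in every library, 149, or 32.7%, had both T1 medians downstream of both pm medians, and 33, or 7.24%, had both upstream. Among all 2540 bins so measured, 28.2% lay downstream and 7.95% upstream. The share was 38.9% for the plus ends of pairs and 24.1% for the minus ends. From T1 to T2 the order was turned, with 32 member bins downstream and 80 upstream, against 6.22% and 15.0% of all bins. From T1 to T3, 77 lay downstream and 103 upstream, against 14.3% and 21.9% of all bins. The shift was small in most bins, with a median of 0.5 nt for the member bins from pm to T1 and quartiles of 0 and 5.25 nt.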

How the data were processed

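Molecules were read from the deposited paired positions of 8 libraries, with 1 line per molecule. The authors followed the TIF-Seq2 protocol, mapped reads to the SK1 assembly, kept uniquely mapped pairs on 1 chromosome, and converted the alignments with bedtools. The submitters' processing notes name STAR 2.5.3a and cutadapt 1.16 without assigning them to this assay. The deposited files hold positions, strands, and a mapping quality score, with no counts per feature and no normalization, and the score was not used in any test. Duplicate molecules were not removed in the main analysis.

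The 3′ ends were counted in bins of 100 nt with Python 3.11.15. Members and lists were chosen with earlier results of these data known. Since members were chosen on molecules summed over all libraries, an end that is high in 1 stage could enter through that stage, which also holds for all bins tested. For such an end, a p-value for that stage gives no independent support. Tests were made with limma 3.58.1 in R 4.3.3, each fit taking all 8 libraries and only the stage as a factor: voom on 6056 bins with library sizes by the median of ratios, the log2 ratio of both ends (0.5 added) over 847 pairs, and the overlap length over 171 pairs with at least 10 molecules per end and library. P-values were adjusted over each whole table by Benjamini-Hochberg. All 3 comparisons (T1 with pm, and T2 and T3 each with T1) use the T1 libraries, and none was compared with another. With 2 replicates per stage, single values allow no useful permutation test. Limits for a count of 0 take 3 molecules and cover counting error only.

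Pairs named in the text were taken by rule: the 3 with most molecules in the weaker end, the 2 longest and 2 shortest overlaps among 51 pairs with 1000 or more molecules in each end, the largest called ratio changes with stages that do not overlap, 1 pair of each kind with both ends called, and the largest called length change of each comparison. This gave 24 pairs in 24 loci. Alternatives comprised other scalings, filters, weights, definitions of a molecule or of the overlap, a replicate block, fits of only the stages compared, and the removal of single libraries.

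The finding of pairs and the fits of bins, ratios, and overlap lengths were first run on simulated data with known answers. The other steps were not. At the spread of the data, most planted changes of bins and ratios were missed, so an end or ratio that was not called may still have changed. The fit of lengths found the planted changes, with some false calls beside them.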

Additional observations from a re-analysis of the deposited data

Results flagged for a closer look

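The spike-in RNAs were not part of any comparison. They gave 4 antisense molecules, all of them in T2 replicate 2, where 1504 spike-in molecules were found. The other 7 libraries had none. This was listed because it is a signal outside the main measurement, and no pair had a weaker end below the antisense share of all spike-in molecules.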

How the results depend on the processing

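Depth, the number of replicates, and the resolution of bins limit these results. The number of pairs was 1100 with 50 molecules per bin and 356 with 200. With bins shifted by 50 nt there were 610 pairs with a median overlap of 90 nt, and 403 of the 612 pairs (65.8%) had the same peaks in both sets, so that which ends are members depends on where the bins begin. The median overlap was 87 nt when overlaps up to 150 nt were admitted and 89 nt with 1 pair per locus, the latter a choice made after the data were seen. Calls of member ends were 293 for T2 and 644 for T3, both against T1, with library totals, 547 (T3) without a filter, and 59 (T2) and 559 (T3) in fits of only the stages compared. Calls of the ratio were 210 (T2) and 75 (T3) with weights, 154 (T3) with at least 200 molecules in both bins, and 146 (T1 against pm) in a fit of only the stages compared. Under the weights, the ratios at chr02:273034-273123 in T3 and chr02:725231-725349 in T2 kept their direction and were no longer called. Over 14 alternatives each, the 28 called ratios of named pairs kept their direction, and 16 of them kept their call throughout, while 37 of 392 values fell short of a call. Calls of the overlap length for T1, T2, and T3 were 2, 0, and 0 with the 3′ ends inside the bins (limma, 8 and 12 in T2 and T3 at an unadjusted p under 0.05), 7, 2, and 4 with 20 molecules per end, and 25, 0, and 18 in fits of only the stages compared. They were 43 (T1) and 21 (T3, with 1 longer and 20 shorter) with mean positions, and 3 (T2) with 1 pair per locus. Leaving out each library in turn gave 42 to 312, 36 to 280, and 118 to 511 member ends for T1, T2, and T3. It gave 23 to 143, 21 to 125, and 135 to 267 ratios, and 7 to 21, 0 to 9, and 8 to 20 lengths. The cause of these movements was not tested. The deviations of same-numbered libraries from their stage means had correlations of -0.36 to 0.14. With 2 libraries per stage, these values cannot settle whether same-numbered libraries came from the same culture. The main fits did not pair them. With the replicate block, 167, 128, and 343 ends, 73, 68, and 221 ratios, and 12, 8, and 8 lengths were called. Of all alternatives of a count or a median, 109 stayed near the main value, within 1.5-fold for a count and 0.395 nt (1 SD between replicates) for the median overlap, and 48 moved beyond these limits.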
